A study of Caenorhabditis elegans with 2 samples.

Results

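The 10 genes described here are regulators and effectors of the ASE neurons, the main salt-sensing cells of Caenorhabditis elegans. They were taken by name as known members of the pathway that the transcription factor CHE-1 governs. They comprise the regulators che-1, die-1, cog-1, lim-6, fozi-1 and lsy-6 and the effectors tax-2, tax-4, hen-1 and eat-4. Of them, 9 are among the 19985 protein-coding genes of the annotation, and lsy-6, which the annotation writes as cel-lsy-6, is 1 of its 261 microRNA genes.

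As background, CHE-1 is a zinc finger protein that switches on the genes of the mature ASE neurons through a short DNA site, and it also keeps its own gene active. The left and right ASE cells then differ through a loop in which the microRNA lsy-6 and the factor die-1 promote the left fate and the homeobox factor cog-1 the right fate. Both cells sense salt through receptor guanylyl cyclases, whose product opens a cyclic nucleotide-gated channel, and they signal to other neurons with glutamate.

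Chromatin was recovered with an antibody to GFP and its DNA sequenced (ChIP-seq) in whole late embryos, 6 hours after eggs were isolated by bleaching, in 2 biological replicates. Both came from strain OP677, which carries the allele unc-119(tm4063) on chromosome III and the insertion wgIs677, a che-1 transgene whose product has GFP and FLAG at its C-terminus. Animals of both sexes were pooled, the promoter of the transgene is not given in the sources used here, and neither an untagged strain nor a control library was analysed. The 2 replicates form 1 group, so no test between groups was possible and every count below is a description.

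The authors deposited 30000 regions for replicate 1, for replicate 2 and for both replicates together, and a set of 791 that passed the irreproducible discovery rate (IDR) procedure, which keeps regions ranked alike in replicates. The 791 were the highest of the list of both. Rank 1 is the highest value of the authors' score, whose scale the sources do not state. The score of the list of both was 127 at rank 791, 69.6 at rank 5000 and 32.9 at rank 30000. The longer lists include background regions by design, so a place in them alone does not mark binding. A region was given to a gene when its summit lay between 2 kb upstream of the gene start and the gene end, a stretch called the window below. Sequencing depth is unknown. In whole embryos, binding in few cells and weak binding in many cannot be told apart.

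The sequences on which the results turn are given here in build WBcel235 (ce11). The first is the stretch of the die-1 intron under the region of the list of both that ranked highest in the 10 windows, chrII:10065597-10065840, read on the minus strand, which is that of die-1. It runs from the edge of a small nucleolar RNA (snoRNA) gene to 50 bp past the summit. Its first 10 bases belong to the snoRNA gene, its capitals mark a CHE-1 site at bases 46 to 51, and the summit is base 194.
die-1 intron: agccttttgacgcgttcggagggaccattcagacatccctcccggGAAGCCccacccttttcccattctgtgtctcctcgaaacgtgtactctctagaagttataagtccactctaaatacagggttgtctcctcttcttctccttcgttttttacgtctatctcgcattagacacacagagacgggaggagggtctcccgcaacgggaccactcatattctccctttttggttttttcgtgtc
Next are the 101 bp around the highest summits of the list of both in cog-1 (chrII:14905330-14905430, plus strand) and fozi-1 (chrIII:9287598-9287698, plus strand). They hold no CHE-1 site.
cog-1 summit: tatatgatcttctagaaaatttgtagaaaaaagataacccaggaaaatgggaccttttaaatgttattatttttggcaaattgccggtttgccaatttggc
fozi-1 summit: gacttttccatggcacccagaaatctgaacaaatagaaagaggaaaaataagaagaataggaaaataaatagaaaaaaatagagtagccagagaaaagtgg

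The next sequences are the CHE-1 sites nearest upstream of the start of each gene that holds one within 2 kb, with 10 bp either side and the site in capitals, other than those of che-1 and tax-2, whose positions alone are described further on. The site was taken as GAAACC or GAAGCC on either strand, the core known from ASE genes, and each line is read on the strand of those letters. They are shown because no region summit lay on any of them. The numbers in the following text give their distance from the gene start.
lsy-6: gtaatgggcgGAAGCCgtaaaatatc
lim-6: tctctaattaGAAACCaacactgcaa
fozi-1: ttgtttttcaGAAACCtaaatcttca
eat-4: tatcaaaataGAAACCgaaaaaaaat
tax-4: aaaggatttaGAAACCggaaattcat
hen-1: ggtcatgacaGAAGCCcaaatagttt
cog-1: caccaacaatGAAACCtttaaggaac
The lsy-6 site was at -108 bp (chrV:10647111-10647136 with its flanks, minus strand). That of lim-6 was at -111 bp (chrX:1072328-1072353, minus strand) and that of fozi-1 at -78 bp (chrIII:9281689-9281714, plus strand). The sites of the other 4 lay farther out, at -366 bp for eat-4 (chrIII:9136508-9136533, plus strand), -583 bp for tax-4 (chrIII:9180950-9180975, minus strand), -1635 bp for hen-1 (chrX:7118619-7118644, plus strand) and -1954 bp for cog-1 (chrII:14900526-14900551, minus strand). The 2 kb upstream of die-1 held none.

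The lsy-6 product and its targets in cog-1 are printed because they tie 2 of the genes together. The mature microRNA of 22 nucleotides (chrV:10647280-10647301, plus strand, coordinates from RefSeq on WBcel235) has its seed, bases 2 to 8, in capitals. The 3′ UTR of cog-1 holds 2 matches to that seed, in capitals in the stretches chrII:14907406-14907428 and chrII:14907448-14907470, both on the plus strand.
lsy-6 mature: uUUUGUAUgagacgcauuucga
cog-1 match A: cgtcacttATACAAAaaccaaac
cog-1 match B: atgcccaaATACAAAaaatttcc

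None of the 10 windows held a region of the IDR set. Of all protein-coding genes, 4.29% did. The exact Clopper-Pearson 95% interval for 0 of 10 genes runs to 30.8%, and this and the other intervals cover counting error only. With so few genes, a share like that of all genes cannot be told apart from none. Each replicate gave the same count on its own, with 0 of the 10 genes among its 791 highest regions.

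Among the 5000 highest regions of both replicates, die-1 and cog-1 each had a region. They are 2 of 10 genes (interval 2.52 to 55.6%), beside 20.1% of protein-coding genes. In the whole list of both, fozi-1 joined them, making 3 of 10 (interval 6.67 to 65.2%) beside 60.2%. Replicate 1 had a region in 4 of 10 windows (interval 12.2 to 73.8%) beside 62.6%, and replicate 2 in 6 of 10 (interval 26.2 to 87.8%) beside 63.6%. All of these background shares lie within the intervals of the 10 genes, but they are not matched for window length, which is compared below. Overlapping regions of replicates 1 and 2 were found in the windows of the same 3 genes, cog-1, die-1 and fozi-1, where 43.2% of protein-coding genes had them.

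**Figure D1:**
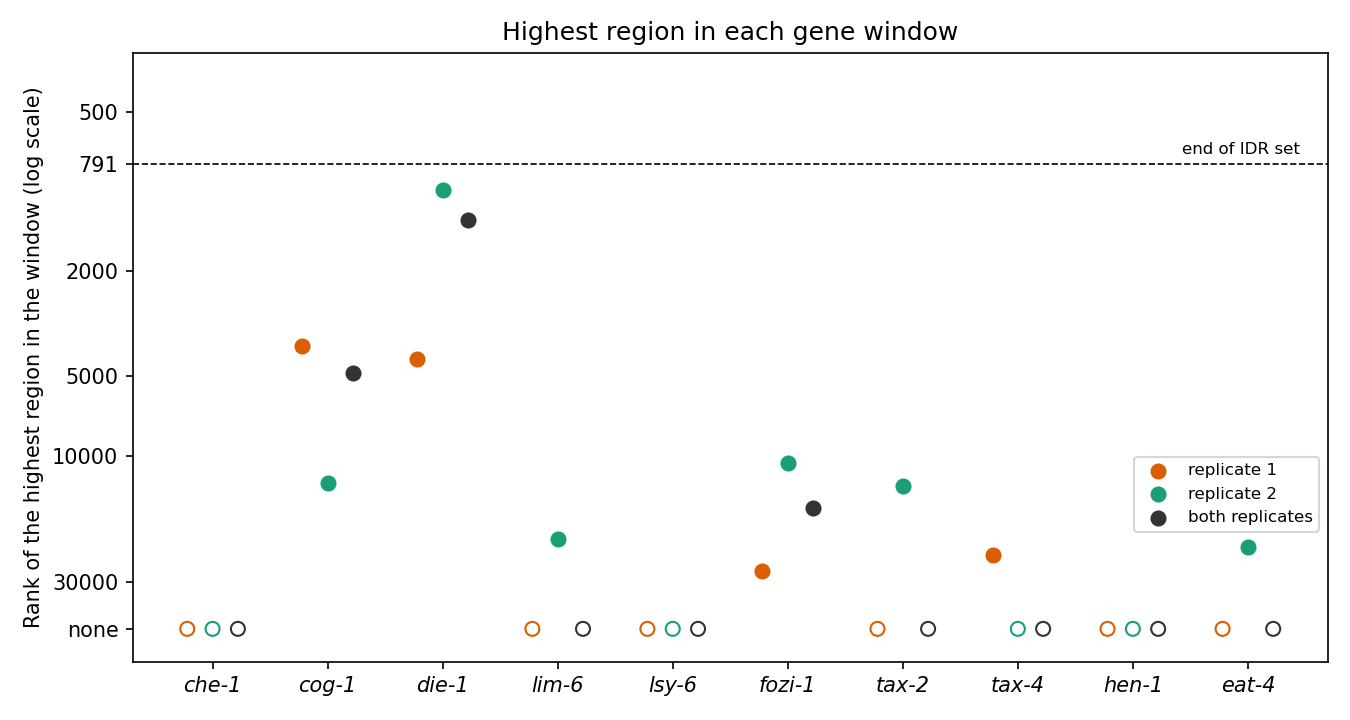
Rank of the highest region in each gene window (vertical axis, log scale, rank 1 at the top), with a point for each list and an open circle where the window held no region. The dashed line marks rank 791, the end of the IDR set, and no gene lies above it. die-1 comes nearest, at rank 986 in replicate 2 and 1287 in the list of both.

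The counts were also followed down the lists. In the list of both, 1 of the 10 had a region among the 2000 highest, beside 9.93% of protein-coding genes, 2 among the 10000 highest, beside 32.8%, and 3 among the 20000 highest, beside 49.3%. In replicate 1 the corresponding counts were 0, 2 and 2, beside 9.77%, 33.5% and 50.8%. In replicate 2 they were 1, 1 and 4, beside 9.48%, 33.9% and 51.5%.

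**Figure D2:**
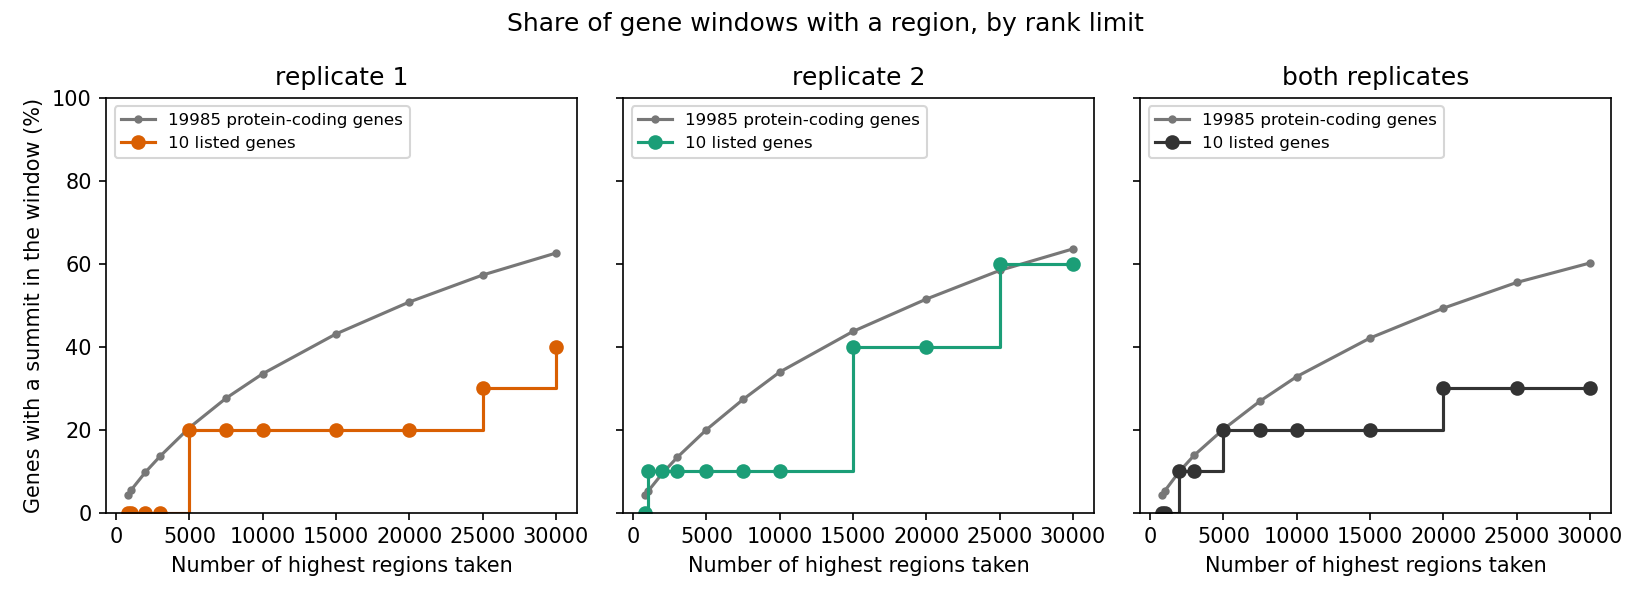
Share of gene windows with a region (vertical axis, %) against the number of highest regions taken (horizontal axis), for the 10 genes in colour and all 19985 protein-coding genes in grey, with a panel for each list. In the list of both the lines are close at 2000 regions (1 of the 10 genes beside 9.93%) and at 5000 (2 of the 10 beside 20.1%). They end at 3 of the 10 beside 60.2%.

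Long windows hold more regions, so window length was compared as well. The 10 windows ran from 2073 bp (lsy-6) to 16896 bp (fozi-1) and covered 71760 bp in all. The 3 windows of 8000 bp or more, of die-1, lim-6 and fozi-1, held a region of both replicates in 2 of 3, where 89.2% of protein-coding windows of that length did. In the 4 windows of 6000 to 8000 bp, of cog-1, tax-2, tax-4 and eat-4, it was 1 of 4, beside 77.9%. By replicate these counts were equal or higher. Replicate 1 had a region in 2 of the 3 longest windows (beside 92.4%) and in 2 of the 4 (beside 80.7%), and replicate 2 in 3 of 3 (beside 92.6%) and 3 of 4 (beside 81.3%). The window of che-1 had no region of the list of both, where 63.3% of windows of 4000 to 6000 bp had one, and the short windows of lsy-6 and hen-1 had none, where 47.7% did. Per length, the 10 windows together held 1.53 summits per 10 kb in replicate 1, 2.37 in replicate 2 and 0.975 in the list of both. All protein-coding windows held 3.09, 3.08 and 3.08.

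Among the regulators, the gene of CHE-1 itself had no region in its window in any list. che-1 (WBGene00000483, chrI:6517529-6520918, minus strand) is the factor that was tagged. Its start also had no summit within 10 kb on either side in replicate 1, replicate 2 or the list of both, as was the case for 6.68%, 5.76% and 9.56% of protein-coding genes. The nearest region lay 9118 bp outside the window. It was an IDR peak at rank 439 of the list of both (score 171), with ranks 501 in replicate 1 and 527 in replicate 2, and its summit was 73 bp upstream of the start of nuo-2, a subunit of respiratory complex I. The che-1 window held 6 CHE-1 sites, of which the nearest upstream, at -212 bp, was 10906 bp from the closest summit of both replicates.

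die-1 (WBGene00000995, chrII:10061302-10067917, minus strand), the zinc finger factor that promotes the left fate, had the highest region of the 10 genes in the list of both and in replicate 2, whereas cog-1 had it in replicate 1. The die-1 region of the list of both was at rank 1287 with a score of 105 (chrII:10065405-10065888), and 6.68% of protein-coding genes had a higher region. Its rank was 4300 in replicate 1 (score 44.4) and 986 in replicate 2 (score 57.3), and the summits of the replicates were 21 bp apart. Both replicates thus placed the region at the same point, but at ranks that differed by 4.36-fold. Where both replicates had a region in a window, the median protein-coding gene had best ranks that differed by 1.84-fold. The best ranks of cog-1 and fozi-1 also differed by more than that, by 3.29-fold and 2.56-fold.

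The summit lay in the first intron of the longer die-1 transcript, 2270 bp into the gene and 1166 bp upstream of the start of a shorter die-1 transcript. It was also 184 bp upstream of the snoRNA gene C18D1.21 (WBGene00219825, chrII:10065831-10065983, plus strand), which sits in the same intron on the other strand. snoRNAs guide the chemical modification of other RNAs. The region included 58 bases of that gene, and its 1 CHE-1 site, printed in the die-1 intron stretch, was 143 bp from the summit. Another region, which overlapped that region, had its summit 59 bp inside the snoRNA gene. It was at rank 15365 in the list of both and 4251 in replicate 2. The printed CHE-1 site was 98 bp from its summit in the list of both and 99 bp in replicate 2. Replicate 1 had no summit there, but its region at rank 4300 also overlapped the snoRNA gene. How far the recovery belongs to die-1 or to the snoRNA gene was not tested.

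The other die-1 regions were lower. In the list of both they were at ranks 12346 (3177 bp into the gene, intron) and 21976 (570 bp upstream). Replicate 1 had counterparts of these, at ranks 25078 and 20566. Replicate 2 had neither, and its remaining 3 regions, at ranks 18371 to 29781, had no counterpart in replicate 1.

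cog-1 (WBGene00000584, chrII:14902493-14907533, plus strand), the homeobox factor of the right fate, had its highest region in an intron, 2887 bp into the gene. That region was at rank 4866 of the list of both, with a score of 70.1 (chrII:14905138-14905621), and 19.7% of protein-coding genes had a higher one. It was at rank 3852 in replicate 1 (score 45.9) and at rank 20611 in replicate 2 (score 21.4), with summits 117 bp apart. The region was thus far higher in replicate 1.

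The other cog-1 region of both replicates was upstream, at -1434 bp and rank 9574 (score 56.8). Replicate 1 had it at -1417 bp and rank 8920, and replicate 2 had its highest cog-1 region at -1209 bp and rank 12682, with the summits 208 bp apart. Replicate 1 held 5 regions in the cog-1 window, in the upstream part and introns. Replicate 2 held 6, in the upstream part, introns and, at ranks 28971 and 29238, exons. The start of cog-1 had 10 summits of replicate 1, 14 of replicate 2 and 12 of the list of both within 10 kb on either side, against a median of 5.00 for protein-coding genes in each list. The 3′ UTR that carries the lsy-6 matches held no summit in any list. The replicate 2 region at rank 29238 had its summit 7 bp before that UTR and covered part of its 394 bases, from their start.

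fozi-1 (WBGene00010453, chrIII:9281780-9296675, plus strand), a zinc finger protein that acts in the right cell, had 1 region in the list of both, at rank 15687 (score 46.8). It lay in an intron 5868 bp into the gene. The replicates placed it 18 bp apart, at rank 27151 in replicate 1 and 12836 in replicate 2. A further pair overlapped by 69 bp, with summits 413 bp apart, at rank 29954 in replicate 1 and at rank 10615 in replicate 2, 9746 bp into the gene. Both pairs thus lay near the end of the list of replicate 1. Above rank 15687 of the list of both, 43.2% of protein-coding genes had a region.

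lim-6 (WBGene00002988, chrX:1072452-1079452, plus strand), a LIM homeobox factor of the left cell, had a region in replicate 2 alone. It was at rank 20647 (score 21.4), in an intron 3097 bp into the gene. In the list of both, the nearest region was 872 bp outside the window, beyond the gene's end, at rank 27500 and 325 bp past the start of pfn-3.

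The microRNA gene lsy-6 (WBGene00003088, chrV:10647232-10647304, plus strand) had no region in its window in any list. In the list of both, 54.8% of the 261 microRNA genes had one. The nearest region of both replicates was 2056 bp outside the window, at rank 18481 and 914 bp into aqp-6. Replicate 1 had its nearest 2210 bp outside at rank 18367, and replicate 2 had its nearest 1181 bp outside at rank 23168, both inside the window of kvs-2.

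**Figure D3:**
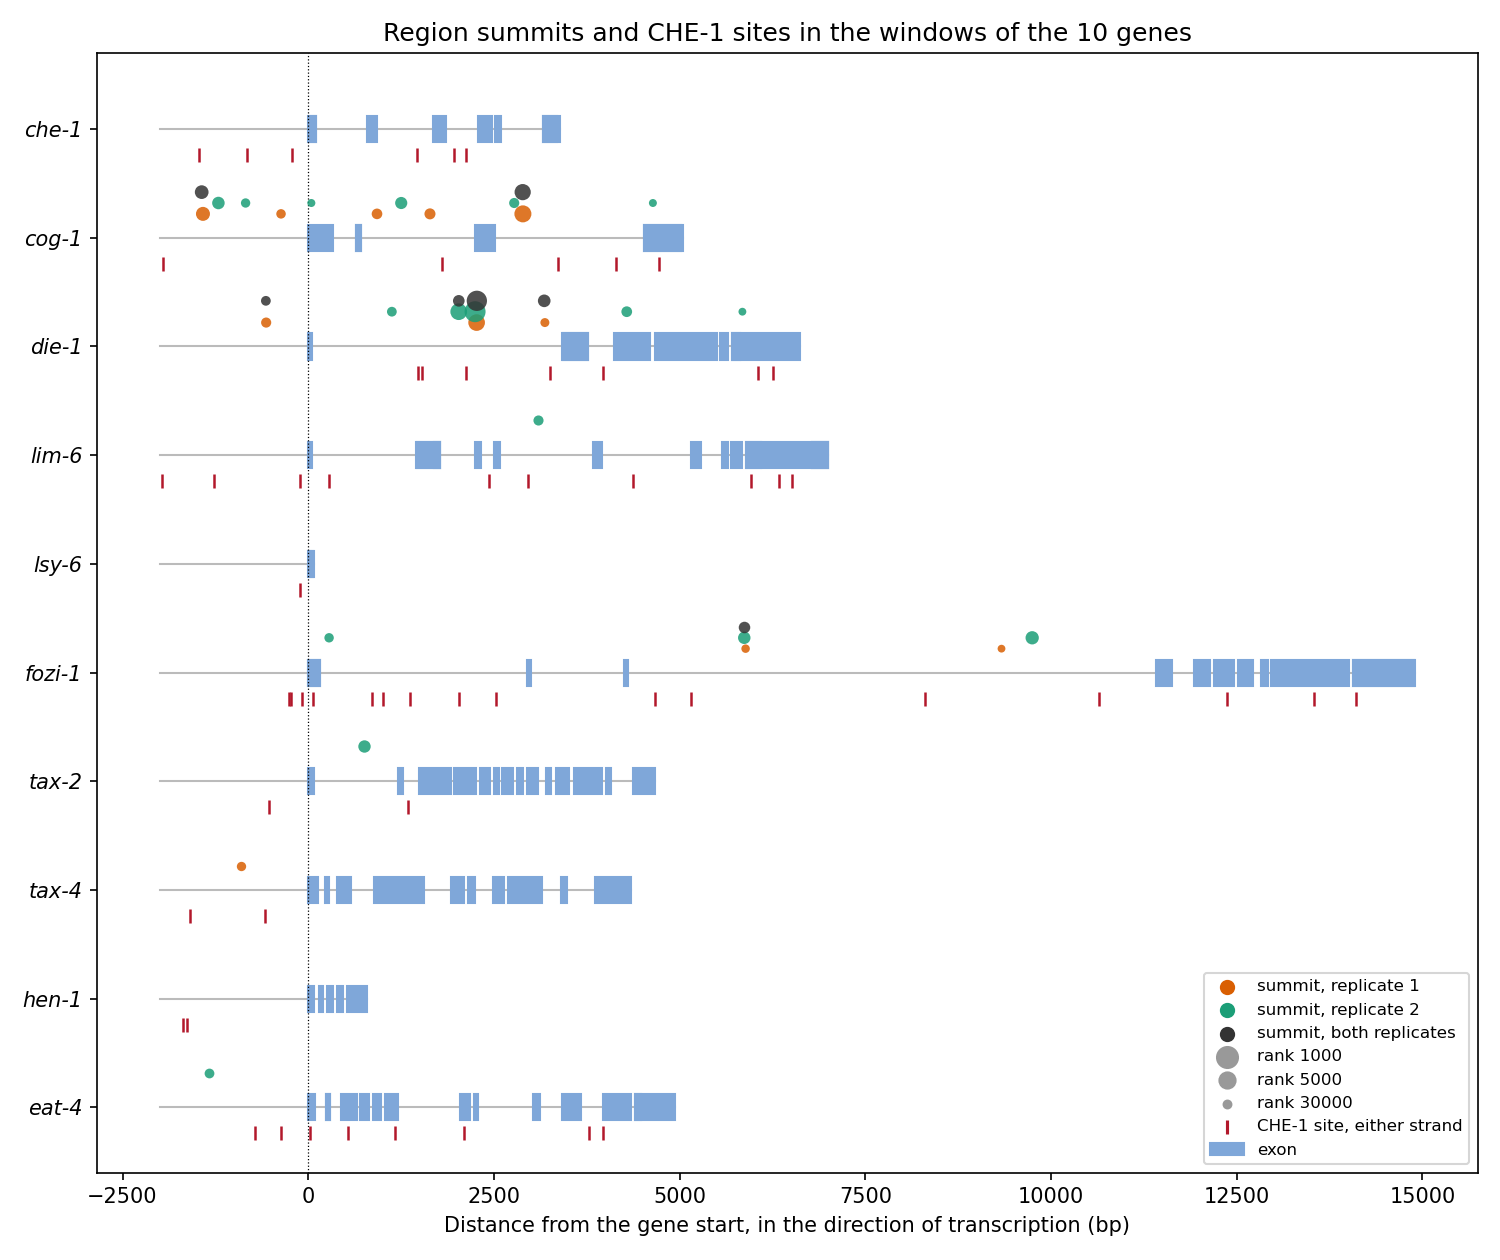
Position of region summits in each gene window (horizontal axis, bp from the gene start in the direction of transcription; 1 row per gene). Circles are summits of replicate 1, replicate 2 and both together, larger for higher ranks, blue blocks are exons and red ticks are CHE-1 sites. Summits gather at cog-1 and die-1, and che-1, lsy-6 and hen-1 have none.

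The effectors had low-scoring regions in 1 replicate or none. tax-2 (WBGene00006525, chrI:9020945-9025608, plus strand), a subunit of the cyclic nucleotide-gated channel, had a region in replicate 2 at rank 13015 (score 26.1), in an intron 749 bp into the gene. Its CHE-1 site nearest upstream was at -522 bp, 1271 bp from the closest summit of replicate 2. tax-4 (WBGene00006526, chrIII:9181546-9185888, plus strand), the other subunit of that channel, had a region in replicate 1 at rank 23615 (score 24.0), 900 bp upstream of its start. The channel subunits thus had no replicate in common.

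eat-4 (WBGene00001135, chrIII:9136887-9141827, plus strand), the transporter that loads glutamate into vesicles, had a region in replicate 2 at rank 21982 (score 20.7), 1334 bp upstream. hen-1 (WBGene00001841, chrX:7116202-7116996, minus strand), a secreted protein needed for learning from combined sensory cues, had none in any list. None of these 4 genes had a region in the list of both.

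Outside the windows, the nearest regions of the list of both were 3570 bp away for tax-2 (rank 29328, inside F36F2.8), 3346 bp for tax-4 (rank 6013), 2819 bp for eat-4 (rank 17950, at ZK512.2) and 10019 bp for hen-1 (rank 11098, 220 bp upstream of C36B7.2). Those of the genes with regions were 284 bp away for cog-1 (rank 13113, in R03C1.1), 482 bp for die-1 (rank 8185, 160 bp upstream of stg-1) and 8109 bp for fozi-1 (rank 21815). The nearest IDR peak was closest for tax-4, 5478 bp outside its window at rank 720 and 257 bp upstream of cls-3. From the gene start to the nearest summit, the median of the 10 genes was 4712 bp in replicate 1, 1741 bp in replicate 2 and 5458 bp in the list of both. Protein-coding genes had medians of 1208, 1176 and 1285 bp.

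The replicates shared part of these regions. Of the 11 regions of replicate 1 in the 10 windows, 8 overlapped a region of replicate 2 there by at least 1 bp, and 9 of the 17 regions of replicate 2 overlapped one of replicate 1. Of all nuclear regions, 58.2% of those of replicate 1 and 58.1% of those of replicate 2 overlapped one of the other. By gene, 3 windows held a region in both replicates, 4 in 1 replicate only and 3 in neither, where 51.4%, 23.5% and 25.1% of protein-coding windows did. Exons held 0 of the 11 regions of replicate 1, 4 of the 17 of replicate 2 and 0 of the 7 of both. Introns held 7, 10 and 5. The shares of all regions in exons and introns are not given here, so these counts cannot be called high or low.

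CHE-1 sites did not lie within 50 bp of the summits. The 10 windows held 59 sites (0.822 per kb, beside 0.844 per kb over the nuclear genome). None was within 50 bp of a summit of both replicates, and so 0 of 10 genes had such a site (interval up to 30.8%), beside 12.1% of protein-coding genes. None was within 50 bp of a summit of either replicate. The nearest, in die-1, was 82 bp from a summit of the list of both and 73 bp from one of replicate 1. Of the 30000 regions of both replicates, 8.56% had a site that near, and of the IDR set 6.19%, so that with 7 regions in the 10 windows a share like these cannot be told apart from none. The reversed letters, CCAAAG or CCGAAG on either strand, were as near in 6.63% of all regions, in 6.57% of the IDR set and in 1 of the 7.

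Sites were found close to the starts of 4 of the 10 genes, che-1, lim-6, lsy-6 and fozi-1, within 250 bp upstream (interval 12.2 to 73.8%), where 15.5% of protein-coding genes had one. The reversed letters were found there in 0 of the 10 and in 10.7% of protein-coding genes. Such matches are letters in the reference and not sites shown to be bound. As the core is known from ASE genes, its share at the 10 genes is not an independent result. The 5 sites of these 4 genes lay 2236 to 10906 bp from the nearest summit of both replicates. In replicate 2 the closest summit was 359 bp from a fozi-1 site, at rank 23316, and in replicate 1 it was 3420 bp from the lim-6 site.

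The receptor guanylyl cyclase genes of the ASE neurons, the gcy genes that lie upstream of the channel, were set beside them. Of 9, 8 had a site within 250 bp upstream, with 11 sites in all, where 15.5% of protein-coding genes had one. In the other pathway lists, described next, it was 2 of 10 ASE specification factors and 0 of 16 cyclic nucleotide and calcium signalling genes. It was 1 of 10 salt learning genes, 1 of 13 glutamate genes and 0 of 5 peptide genes. The site core is known from ASE genes, so its share at the gcy genes is not an independent result. The distance of the gcy sites to the nearest summit of both replicates ran from 1010 bp (gcy-22) to 17444 bp (gcy-1). In replicate 2 the closest was 394 bp, at gcy-6.

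Other genes of the pathway were counted in 6 lists of 63 genes. The gcy genes had a region of both replicates in 3 of 9 windows (33.3%) and the neuropeptide genes of ASE in 0 of 5, beside 60.2% of protein-coding genes. Other ASE specification factors had one in 9 of 10 and cyclic nucleotide and calcium signalling genes in 12 of 16 (75.0%). Salt learning genes had one in 8 of 10 and glutamate transmission genes in 9 of 13 (69.2%). By replicate, the gcy genes had a region in 2 of 9 windows in replicate 1 and 5 of 9 in replicate 2, and the peptide genes in 1 of 5 and 4 of 5, beside 62.6% and 63.6% of protein-coding genes. The other 4 lists had 8 of 10, 13 of 16, 9 of 10 and 10 of 13 in replicate 1 and 9 of 10, 14 of 16, 9 of 10 and 8 of 13 in replicate 2, in the order above. These lists differ in window length, and no test between them was made.

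IDR peaks were found in the windows of 2 of the 63 genes, beside 4.29% of protein-coding genes, a share near the background. cng-3, a cyclic nucleotide-gated channel subunit, had one at rank 37 (score 701), in an intron and within 100 bp of the snoRNA gene F38E11.14. egl-30, the Gq alpha subunit that acts in salt learning, had one at rank 314 (score 213), 46 bp upstream of its start, with ranks 254 in replicate 1 and 381 in replicate 2. In the other lists the highest was lsy-22, a regulator of ASE asymmetry, at rank 1613 among the ASE specification factors. nmr-2, an NMDA receptor subunit, was at rank 1603 among glutamate genes, and gcy-4 at rank 11172 among the gcy genes, both within 100 bp of a transfer RNA gene.

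**Figure D4:**
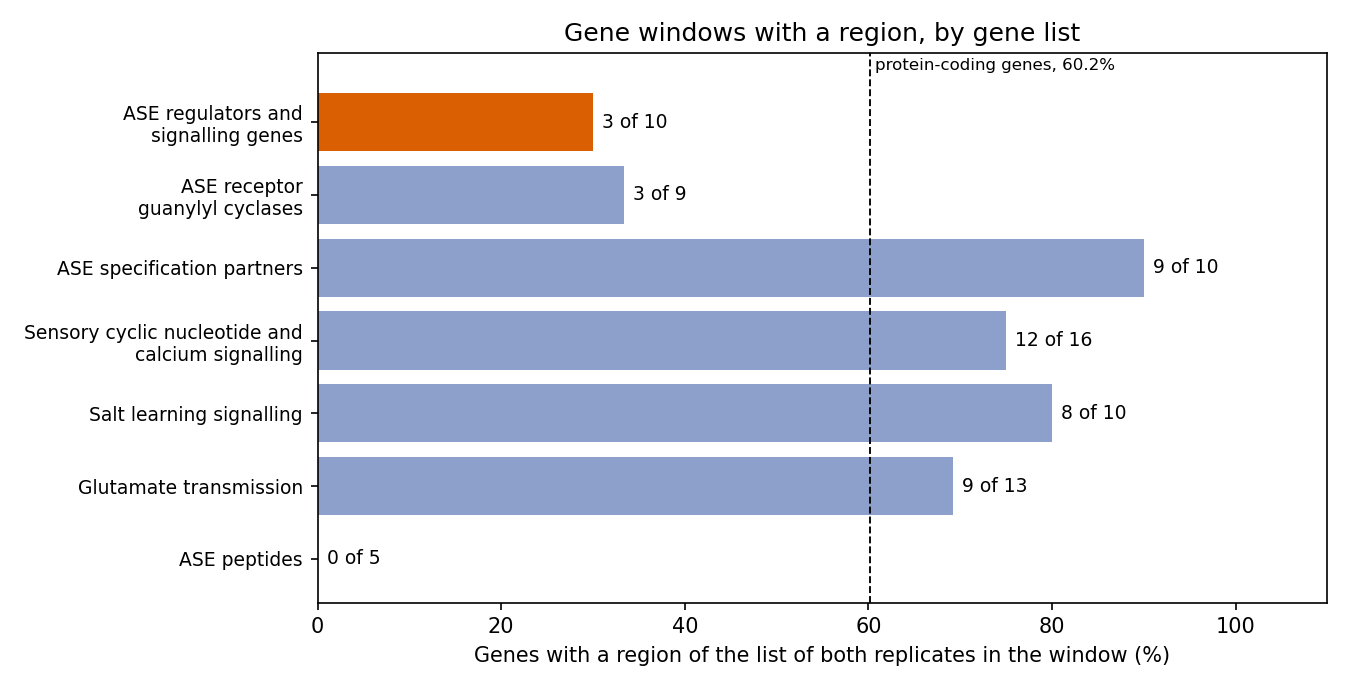
Share of genes with a region of the list of both replicates in the window (horizontal axis, %), for the 10 genes (orange) and the 6 pathway lists (blue), with the counts beside the bars. The dashed line is the 60.2% of protein-coding genes. The 10 genes (3 of 10), the gcy genes (3 of 9) and the ASE peptides (0 of 5) lie below it. The single replicates are not plotted. These counts were 4 of 10, 2 of 9 and 1 of 5 in replicate 1, beside 62.6% of protein-coding genes. In replicate 2 they were 6 of 10, 5 of 9 and 4 of 5, beside 63.6%.

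The genes whose best ranks in the 3 lists were most like those of die-1 were sought among protein-coding genes outside the lists, by the summed absolute log2 ratio of the ranks. The closest was nrsn-1, at ranks 4383, 1061 and 1235 in replicate 1, replicate 2 and the list of both (summed ratio 0.193). Y54E10BL.3 and nduf-5 followed, at 4702, 993 and 1417 each (0.278), and have a region in common. The likeness is over 3 lists, of which one was called on the replicates of the others together.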

How the data were processed

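The authors deposited region lists with a score per region and a summit. Per the descriptions deposited with the samples, regions were called for each replicate and for both together against a control, in builds ce10 and ce11. No caller, aligner, version or IDR cutoff is given in the sources used here. The deposited score, in column 7, was used only to rank regions within a list, and ties were broken by position. The ce11 lists were used, with the WBcel235 genome and the Ensembl release 115 annotation; the ce10 lists and text notes were not used. All coordinates count from 1. Python 3.11.15, numpy 2.4.6, pandas 2.3.3, scipy 1.17.1 and matplotlib 3.10.9 were used. Window assignment and site search were tested on simulated data.

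The 10 genes and the 6 pathway lists were chosen with earlier results of these data known. The text names all 10 genes, each pathway gene with an IDR peak or otherwise the highest of its list, and the 3 genes most like the highest of the 10. Genes named as neighbours are those nearest a region. Alternatives changed the upstream length (1 or 5 kb), the assignment by summit or by overlap, the number of regions, the replicate used, the overlap called shared, and the site window and letters. The whole-embryo design gives 1 group of 2 replicates, with depth unknown. The labels' antibody field reads che-1, whereas their description names GFP, which is followed here.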

Additional observations from a re-analysis of the deposited data

How the results depend on the processing

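Of 40 alternatives over these results, 30 kept counts within 1.5 times and ranks within 1 SD of the replicates' ranks. Some of the 30 could not differ, since a count of 0 stays 0 with a shorter window or fewer regions. The SD rests on only 2 replicates, so ranks that disagree more are kept more easily. With 2 times as many regions as the IDR set, 1 gene (die-1) had a region in its window. With 1 replicate in place of both, the genes with a region numbered 4 to 6 in the whole list and 1 to 2 among the 5000 highest, 1 when replicate 1 was left out. With the 2500 highest regions it was 1. In the list of both, 1 gene, die-1, had CHE-1 sites within 100 bp of a summit, and also anywhere in a region. A GAAACC at chrII:10064656-10064661 was 82 bp from the summit at rank 12346, and 73 bp from that at rank 25078 in replicate 1. The printed GAAGCC was 98 bp from the summit at rank 15365. Within single replicates, regions of other genes also held sites. These were cog-1 (rank 17333 in replicate 1 and 29238 in replicate 2), lim-6 (rank 20647 in replicate 2) and fozi-1 (rank 23316 in replicate 2). The cog-1 site in the replicate 2 region was 85 bp from its summit. Within 1000 bp upstream 7 genes held a site, where 52.4% of protein-coding genes did, and 0 held the reversed letters within 250 bp. The best rank ran from 3852 to 12682 for cog-1 and from 986 to 4300 for die-1 in the single replicates. The fozi-1 rank, 15687 in the list of both, was 10615 to 27151 in the single replicates, and with summits within 100 bp, 2 genes in place of 3 had shared regions. The 5 kb upstream window gave 4 genes in the whole list. The causes were not tested. Ranks carry no depth, and 10 genes give wide intervals.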
